A study of Mus musculus with 40 samples.

Results

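The Siglec family is a set of sialic acid-binding receptors of the immunoglobulin superfamily, and 7 of its mouse genes, Cd33, Siglec1, Siglece, Siglecf, Siglech, Siglecg and Cd22, were read here out of 54307 genes measured. They were chosen by name, each symbol matched a single Ensembl identifier, and the rule itself uses no measured value, although earlier results of these data were known when the family was picked. RNA was sequenced from the choroid and the retina of the same 20 mice, 6 laser burns having been set in each eye 3 days earlier, which gave 40 libraries. The mice fell into 4 groups of 5: controls and Tgfbr2ΔEC mice, each without and with PLX5622 (- PLX and + PLX). All mice carried floxed Tgfbr2 alleles on a C57BL/6J background and received tamoxifen eye drops at 20 mg/ml for 5 days at 6 to 7 weeks of age. Controls lacked Cre, and Tgfbr2ΔEC mice carried Cdh5-CreERT2, a tamoxifen-inducible Cre driven by an endothelial promoter, so that the deletion concerned endothelial cells and not the myeloid cells that most Siglecs are known from. PLX5622, a CSF1 receptor inhibitor that depletes mononuclear phagocytes, was given in the diet from the first tamoxifen dose to the end, and only the central choroid was taken.

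Siglecs bind sialic acids at the ends of sugar chains on neighbouring cells or on the same cell. Most carry tyrosine-based inhibitory motifs in their cytoplasmic tail, which recruit the phosphatases SHP-1 and SHP-2 and dampen activating signals, while others, such as Siglec-H, pair with the activating adaptor DAP12. Within the eye they are best known from microglia and tissue macrophages, where sialylated surfaces of neurons hold phagocytosis and complement attack in check. Siglec1 (sialoadhesin, CD169) is an adhesion receptor of tissue macrophages, Cd33 and Siglece mark a broad range of myeloid cells, Siglech is known from microglia and plasmacytoid dendritic cells, Siglecf from eosinophils and alveolar macrophages, and Siglecg and Cd22 from B cells.

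On the mouse genome GRCm39, 4 of the genes lay close together on chromosome 7. This cluster ran over 308.8 kb from Siglecf (start 43000765, end 43008955, plus strand) through Siglecg (start 43057628, end 43067782, plus strand) and Cd33 (start 43173634, end 43193875, minus strand) to Siglece (start 43298405, end 43309607, minus strand). Siglech (start 55417926, end 55429195, plus strand) lay 12.1 Mb from the cluster and Cd22 (start 30564827, end 30579767, minus strand) 12.4 Mb from it, both also on chromosome 7. Siglec1 was the only member on another chromosome, on chromosome 2 (start 130911140, end 130928685, minus strand). Siglece shares bases with Ceacam18 on the opposite strand, which averaged at most 0.118 normalized counts in any tissue and diet, and Cd22 with Gm29439, which averaged at most 0.596. The libraries were stranded. The RNAs Gm72285 and Gm72294, which overlap Cd33 on the opposite strand, and Gm72789, which overlaps Cd22, were not analysed here.

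The sequence before the start of each gene is shown for the 3 members that behaved in 3 ways on PLX5622 and whose 250-base window held no exon of another transcript: Siglec1, which fell in choroid, Siglece, which fell in choroid and not in retina, and Siglecg, which passed the test in neither. Each is the 250 bases before the canonical start, read from GRCm39 and written 5′ to 3′ along the gene, with capitals for GAGGAA or its complement TTCCTC, the purine box known as the core of the binding site of the myeloid factor PU.1.
Siglec1, chr2:130928686-130928935, minus strand: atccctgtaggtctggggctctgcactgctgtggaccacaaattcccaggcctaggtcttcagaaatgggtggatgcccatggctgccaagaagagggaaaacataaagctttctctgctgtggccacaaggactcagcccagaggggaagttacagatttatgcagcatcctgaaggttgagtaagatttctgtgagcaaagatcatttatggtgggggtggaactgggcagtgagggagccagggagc
Siglece, chr7:43309608-43309857, minus strand: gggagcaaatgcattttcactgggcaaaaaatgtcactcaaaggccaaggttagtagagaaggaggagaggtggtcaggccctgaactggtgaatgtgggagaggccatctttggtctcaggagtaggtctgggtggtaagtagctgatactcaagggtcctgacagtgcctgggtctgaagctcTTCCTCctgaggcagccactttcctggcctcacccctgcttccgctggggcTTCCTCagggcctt
Siglecg, chr7:43057378-43057627, plus strand: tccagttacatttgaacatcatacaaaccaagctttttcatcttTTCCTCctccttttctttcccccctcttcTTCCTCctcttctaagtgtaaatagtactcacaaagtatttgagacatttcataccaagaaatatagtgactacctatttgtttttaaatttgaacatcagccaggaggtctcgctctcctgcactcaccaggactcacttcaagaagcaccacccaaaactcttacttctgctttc
The box occurred at 2 places in the Siglece window, at 65 to 60 and at 14 to 9 bases before the start, and at 2 places in the Siglecg window, at 206 to 201 and at 177 to 172 bases. Over all members, 5 of 7 windows held it on either strand (Cd33, Siglece, Siglecf, Siglecg and Cd22), against 22.9% of the 21770 protein-coding windows of the same length, and the Siglec1 and Siglech windows held none. These are matches of letters. Cd33, called lower on PLX5622 in both tissues, and Siglecf, called in neither, both had a match.

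Estimated from how the lowest values are spaced, a library held about 20940403 to 30421581 reads and each read counted for 0.745 to 1.18 normalized counts. The floor of detection, taken as 3 reads, was at 2.24 to 3.54. The labelled tissues held their defining markers: the summed level of 10 photoreceptor genes was between 1026000 and 1508000 normalized counts in the retinas and between 2374 and 134500 in the choroids, and that of 8 pigment cell genes between 228000 and 449000 in the choroids and between 6682 and 17300 in the retinas. Tgfbr2 itself, read over the whole gene and whole tissue, lay between 8729 and 12800 in the choroids and between 66.4 and 292.9 in the retinas, and controls and Tgfbr2ΔEC mice overlapped in both, which does not check a deletion in endothelial cells. In the choroid, the photoreceptor genes moved with genotype: their mean log2 level was 2.52 higher in Tgfbr2ΔEC than in control mice without PLX5622 (exact permutation test, two-sided p = 0.00794, the smallest that 5 against 5 allows).

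The first question was what CSF1 receptor inhibition did to each Siglec in the choroid. Cd33, Siglec1, Siglece and Siglech fell in both genotypes, and their means over the 10 mice of a diet, genotypes pooled, came to between 15.1% and 22.1% of those without PLX5622, while Siglecf, Siglecg and Cd22 did not pass the test in either. A gene was called where the Benjamini-Hochberg adjusted p of the limma test over all genes tested was at most 0.05. Genes averaging under 1 normalized count over a tissue had been set aside, and all 7 members were above that limit in both tissues. Lower calls numbered 4 of 7 members in each genotype, against 3.15% of the 23619 genes in controls and 3.5% in Tgfbr2ΔEC mice. The median log2 difference of the members was -2.58 in controls and -1.68 in Tgfbr2ΔEC mice, beside 0.016 and -0.0065 over all genes. In whole tissue, fewer cells of a type and less RNA per cell cannot be told apart.

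**Figure D1:**
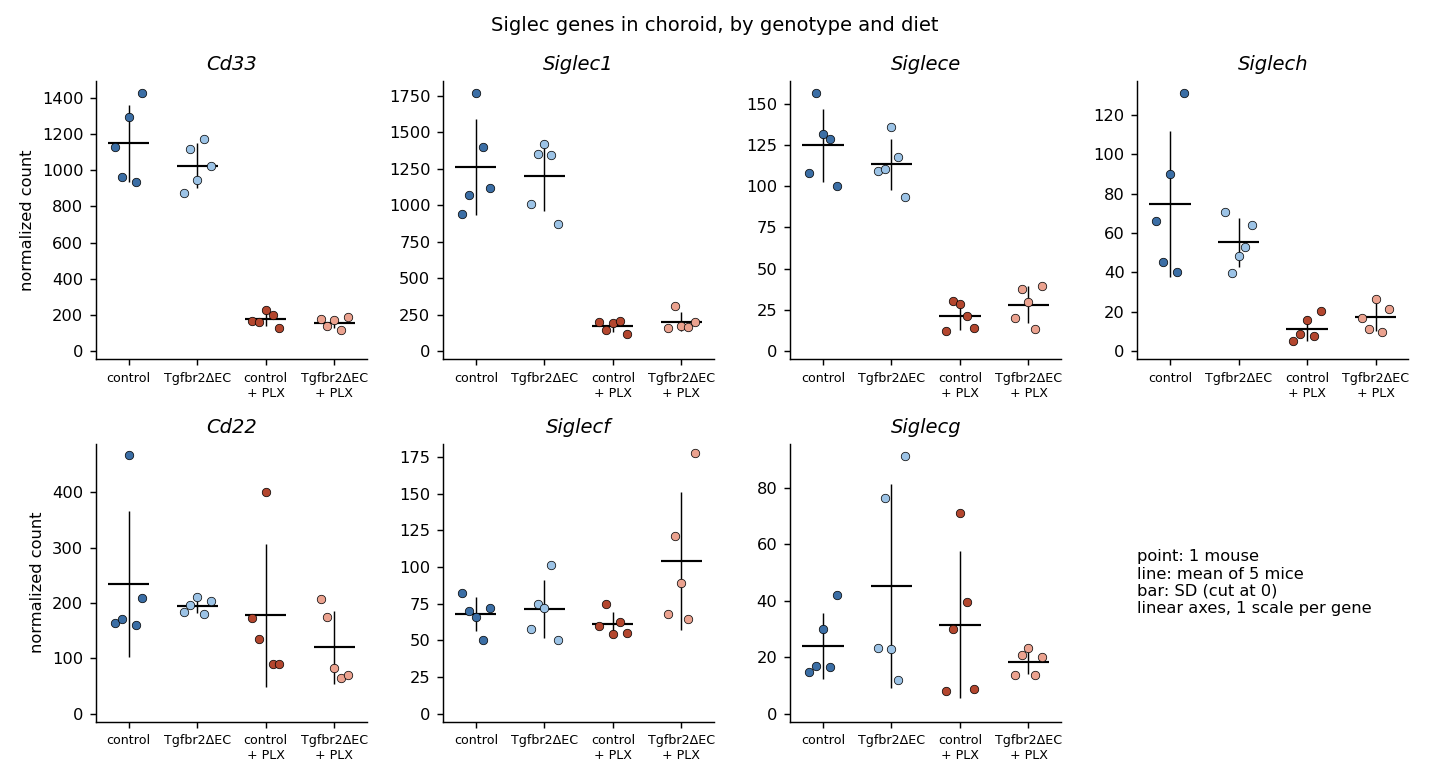
Normalized counts of the 7 Siglec genes in the choroid of each mouse (vertical axis, linear, 1 scale per gene) for the 4 groups (horizontal axis). Points are mice, horizontal lines means of 5 mice and vertical bars SD. Cd33, Siglec1, Siglece and Siglech of the mice on PLX5622 all lie below every mouse without it, while the groups overlap for Cd22, Siglecf and Siglecg.

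Siglec1, the macrophage adhesion receptor, was at 944, 1072, 1771, 1399 and 1122 normalized counts in the controls - PLX and at 1011, 1355, 1423, 1347 and 875 in Tgfbr2ΔEC - PLX. On PLX5622 it was at 197, 141, 191, 203 and 119 in the controls and at 157, 312, 174, 165 and 201 in Tgfbr2ΔEC mice. No mouse on PLX5622 came near any mouse without it, and mouse 17, a Tgfbr2ΔEC mouse at 312, was the highest of the treated choroids. The log2 difference was -2.88 ± 0.21 (SE; limma, adjusted p = 1.74e-08) in controls and -2.59 ± 0.21 (limma, adjusted p = 7.18e-08) in Tgfbr2ΔEC mice.

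Cd33, a myeloid receptor that gives its name to the CD33-related Siglecs, had little spread within groups. Its values were 1127, 964, 1295, 935 and 1429 normalized counts in controls - PLX and 873, 1118, 947, 1174 and 1021 in Tgfbr2ΔEC - PLX. With PLX5622 they were 166, 161, 225, 201 and 127 in controls and 174, 138, 169, 117 and 186 in Tgfbr2ΔEC mice. The lowest untreated choroid, at 873, was far above the highest treated one, at 225. On the log2 scale the difference was -2.71 ± 0.16 in both genotypes (limma, adjusted p = 3.62e-09 in controls and 1.82e-09 in Tgfbr2ΔEC mice).

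Siglece, an inhibitory receptor of myeloid cells, stood at 108, 157, 132, 129 and 100 normalized counts in controls - PLX and at 109, 110, 136, 118 and 93.6 in Tgfbr2ΔEC - PLX. On the inhibitor it stood at 12, 30.2, 28.2, 21.2 and 13.9 in controls and at 19.8, 37.5, 29.8, 13.5 and 39.4 in Tgfbr2ΔEC mice. The highest treated choroid, at 39.4, was below the lowest untreated one, at 93.6. Its log2 difference was -2.58 ± 0.29 (limma, adjusted p = 4.85e-06) in controls and -2.07 ± 0.29 (limma, adjusted p = 8.47e-05) in Tgfbr2ΔEC mice.

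Siglech, which signals through DAP12, was read at 66.3, 45.4, 90.2, 40.3 and 131 normalized counts in controls - PLX and at 70.8, 39.7, 48.1, 53.0 and 64.3 in Tgfbr2ΔEC - PLX. On PLX5622 it was read at 4.92, 8.53, 15.7, 7.49 and 20.4 in controls and at 16.9, 11.4, 26.6, 9.87 and 21.5 in Tgfbr2ΔEC mice. All treated choroids were above the floor of 3 reads and below every untreated choroid, and the means went from 74.6 to 11.4 in controls and from 55.2 to 17.3 in Tgfbr2ΔEC mice. The log2 difference was -2.63 ± 0.39 (limma, adjusted p = 0.000119) in controls and -1.68 ± 0.39 (limma, adjusted p = 0.0137) in Tgfbr2ΔEC mice. The photoreceptor genes moved with PLX5622 in the same Tgfbr2ΔEC choroids, with a difference of -2.33 in their mean log2 level (exact permutation test, p = 0.00794), and with that score as a covariate the Siglech difference in Tgfbr2ΔEC mice was -1.32 (limma, adjusted p = 0.208) and no longer called. Of 5 plasmacytoid dendritic cell markers, none was called in choroid within a genotype and 1, Ccr9 (-1.11, limma, adjusted p = 0.0383), was called lower when the genotypes were averaged. Their summed level ranged from 604.3 to 2170 normalized counts without and from 247.2 to 2019 with PLX5622, their mean log2 level differed by -0.788 in controls (exact permutation test, p = 0.119) and -0.049 in Tgfbr2ΔEC mice (exact permutation test, p = 0.889), and their part in Siglech was not tested. In the retinas the same sum was 7364 to 12420, although the mean log2 level was lower there (3.27 against 5.48 in controls - PLX). The sum is therefore not a measure of these cells.

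Cd22, a co-receptor of B cells that recruits SHP-1, overlapped between the diets, and its highest values were in 2 control mice. Without PLX5622 it was at 164, 171, 467, 160 and 208 normalized counts in controls and at 184, 195, 211, 181 and 204 in Tgfbr2ΔEC mice. With PLX5622 it was at 173, 135, 400.5 (mouse 13), 89.3 and 88.9 in controls and at 207, 175, 82.6, 65.1 and 69.2 in Tgfbr2ΔEC mice. Of the 10 treated choroids, 6 were below every untreated one and 4 were not, so the groups overlapped. On the log2 scale the difference was -0.51 ± 0.39 (limma, adjusted p = 0.638) in controls and -0.87 ± 0.39 (limma, adjusted p = 0.282) in Tgfbr2ΔEC mice, and averaged over both genotypes it was -0.69 ± 0.28 (limma, adjusted p = 0.163). In that average 4 members were called lower, against 5.06% of genes. Without mouse 13 that average was -0.87 (limma, adjusted p = 0.0305), and with the photoreceptor score as a covariate -0.99 (limma, adjusted p = 0.0291), so the call depended on these settings.

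Siglecf, the eosinophil and alveolar macrophage receptor, did not pass the test. It ranged from 50.2 to 101 normalized counts over the 10 choroids without PLX5622 (median 71.1) and from 54.0 to 178 over the 10 with it (median 66.3). The highest values, 178 in mouse 20 and 121 in mouse 17, both came from Tgfbr2ΔEC mice on PLX5622. Its log2 difference was -0.15 ± 0.26 (95% confidence interval -0.68 to 0.39) in controls and 0.48 ± 0.26 (-0.06 to 1.01) in Tgfbr2ΔEC mice. Of 6 eosinophil markers, which summed to between 2.98 and 31.4 normalized counts over all choroids, 3 were high enough to be tested. None was called within a genotype, and Prg2 was called higher when the genotypes were averaged (1.19, limma, adjusted p = 0.034). Their mean log2 level differed with PLX5622 by 0.51 in Tgfbr2ΔEC mice (exact permutation test, p = 0.0238) and by 0.057 in controls (exact permutation test, p = 0.841), while Epx and Ear6 were listed at 0 in all 5 Tgfbr2ΔEC choroids on PLX5622. Tgfbr2ΔEC minus control, that level differed by -0.426 without PLX5622 (exact permutation test, p = 0.00794) and by 0.024 with it (exact permutation test, p = 0.921). The part of eosinophils in Siglecf was not tested.

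Siglecg, the inhibitory receptor of B cells, had the lowest level per length in the untreated choroid. Its values ran from 11.9 to 91.2 normalized counts without PLX5622 (median 23.1) and from 8.01 to 71.1 with it (median 20.5). The ranges overlapped almost fully, with log2 differences of 0.06 ± 0.58 in controls and -0.89 ± 0.58 in Tgfbr2ΔEC mice. The 6 B cell markers summed to between 48.5 and 209.8 normalized counts over all choroids. With PLX5622 their mean log2 level differed by 0.073 in controls (exact permutation test, p = 0.825) and by 0.034 in Tgfbr2ΔEC mice (exact permutation test, p = 0.929). The part of B cells in Siglecg and Cd22 was not tested.

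In the retina, 2 of the 7 members were called lower in each genotype, Cd33 and Siglech, against 0.727% of 23243 genes called lower in controls and 0.512% in Tgfbr2ΔEC mice. Both went to the floor of detection, while Siglece did not pass the test. The median log2 difference of the members was -1.63 in controls and -2.01 in Tgfbr2ΔEC mice, beside 0.0048 and -0.0020 over all genes. Averaged over both genotypes, Siglec1 and Cd22 were also called, 4 of 7 against 1.08% of genes called lower.

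**Figure D2:**
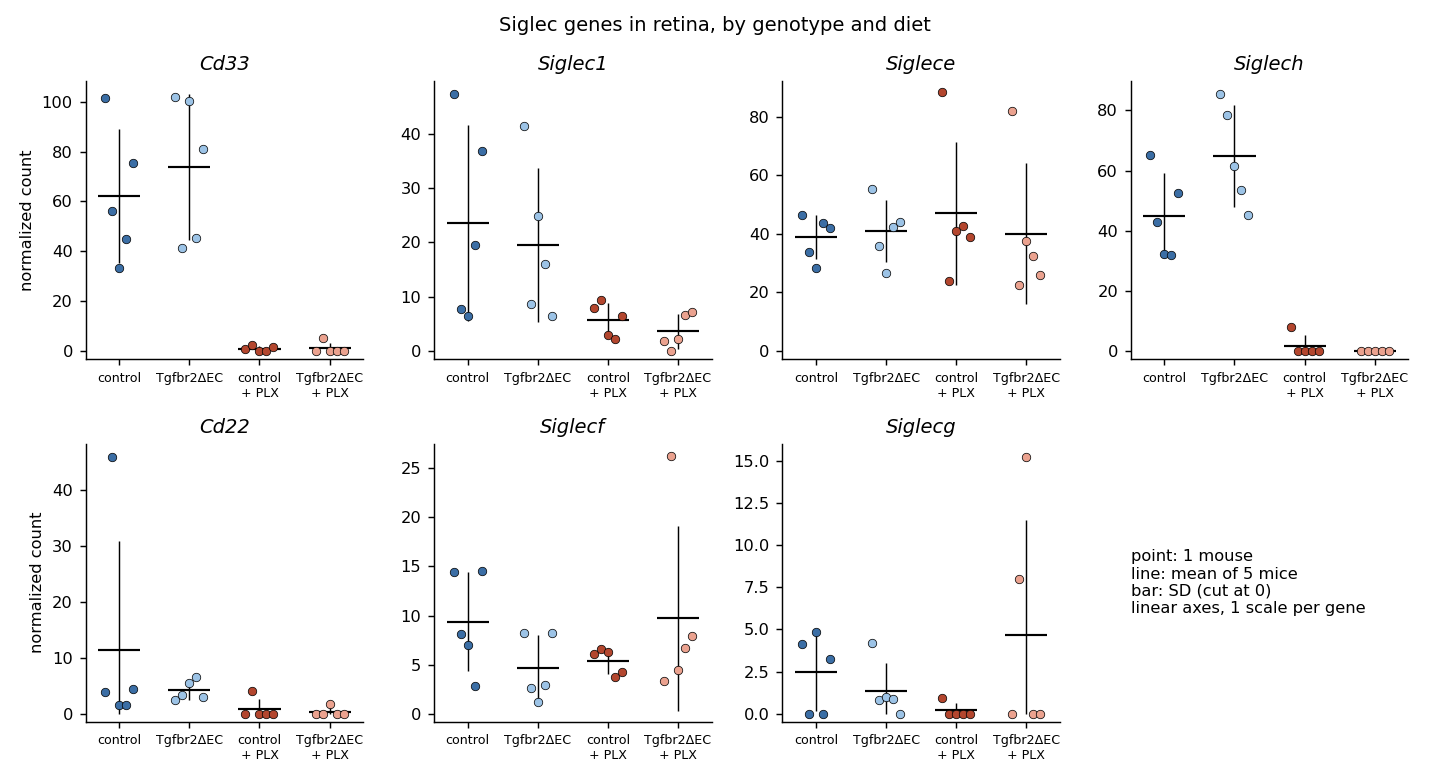
Normalized counts of the 7 Siglec genes in the retina of each mouse (vertical axis, linear, 1 scale per gene) for the 4 groups, with means (lines) and SD (bars, drawn no lower than 0) of 5 mice. Cd33 and Siglech lie at or near 0 in the mice on PLX5622, whereas Siglece on PLX5622 lies within or just under the range without it, apart from the high values of 88.5 and 82.0 in mice 11 and 16.

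Siglech, known as a microglial Siglec, was at 65.3, 42.8, 32.3, 32 and 52.6 normalized counts in the retinas of controls - PLX and at 85.5, 78.3, 61.6, 53.4 and 45.1 in Tgfbr2ΔEC - PLX. With PLX5622 it was listed at 0 in 9 of 10 retinas and at 8.10 in mouse 11, a control. The control mean went from 45.0 to 1.62, and the Tgfbr2ΔEC mean, with all 5 treated retinas at 0, was at least 19.5-fold lower against a floor of 3 reads per library. The fitted log2 difference, which depends on the pseudocount, was -4.83 ± 0.49 (limma, adjusted p = 2.58e-06) in controls and -6 ± 0.49 (limma, adjusted p = 1.23e-07) in Tgfbr2ΔEC mice.

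Cd33 was at 101, 56.0, 33.1, 44.8 and 75.2 normalized counts in the retinas of controls - PLX and at 102, 41.2, 100, 45.3 and 80.9 in Tgfbr2ΔEC - PLX. On PLX5622 it was at 0.671, 2.34, 0, 0 and 1.39 in controls, all under the floor, and in Tgfbr2ΔEC mice at 0 except for 5.18 in mouse 17. The treated and untreated retinas were far apart in both genotypes. The log2 difference was -5.13 ± 0.51 (limma, adjusted p = 2.33e-06) in controls and -5.60 ± 0.51 (limma, adjusted p = 7.48e-07) in Tgfbr2ΔEC mice. With 9 of 10 treated retinas under the floor these sizes depended on the pseudocount, at -5.73 and -6.42 with 0.5 and at -3.44 and -3.69 with 5, and Cd33 was called under both (limma, adjusted p of at most 1.371e-05).

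Siglece in the retina was at 46.4, 33.9, 28.2, 43.5 and 41.9 normalized counts in controls - PLX and at 55.4, 35.9, 26.6, 42.2 and 44.1 in Tgfbr2ΔEC - PLX. With PLX5622 it was at 88.5, 23.8, 41.0, 42.6 and 38.9 in controls and at 82.0, 22.6, 37.4, 32.4 and 26 in Tgfbr2ΔEC mice. Apart from mice 11 and 16, which were higher than any other retina, the treated retinas lay within or just under the untreated range. On the log2 scale the difference was 0.16 ± 0.34 (95% confidence interval -0.55 to 0.87) in controls and -0.15 ± 0.34 (-0.86 to 0.56) in Tgfbr2ΔEC mice, and averaged over both genotypes it was 0.009 (-0.49 to 0.51). In the same treated retinas Tyrobp, which encodes DAP12, averaged 0.606 normalized counts in controls and 0.519 in Tgfbr2ΔEC mice. Of the 11 microglia markers, 5 (Tmem119, Cx3cr1, Gpr34, C1qa and C1qc) averaged under the lowest floor of a retina, 2.24, in both genotypes, whereas Csf1r averaged 55.3 and 65.8, P2ry12 14.0 and 15.8 and Sall1 14.8 and 10.5. The 6 neutrophil markers, of another cell type that carries Siglece, summed to between 0 and 24.3 normalized counts over all retinas, and their part in its level was not tested.

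Siglec1 was low and uneven in the retina. It was at 47.3, 7.67, 6.38, 19.5 and 36.9 normalized counts in controls - PLX, at 41.5, 8.57, 24.8, 16.1 and 6.50 in Tgfbr2ΔEC - PLX, at 7.93, 9.34, 2.87, 2.22 and 6.42 in controls + PLX and at 1.87, 0, 2.27, 6.69 and 7.15 in Tgfbr2ΔEC + PLX. The treated retinas were all under 10 and the untreated ones reached down into that range. Its log2 difference was -1.63 ± 0.64 (limma, adjusted p = 0.657) in controls and -2.23 ± 0.64 (limma, adjusted p = 0.289) in Tgfbr2ΔEC mice. Averaged over genotypes it was -1.93 ± 0.45 (limma, adjusted p = 0.0364; exact permutation test of this gene within genotypes, p = 0.00123), a call that was lost when any of 12 of the 20 mice was left out. The control with the highest value, mouse 1, also had the highest summed level of the 8 border macrophage markers, 2141 normalized counts against a median of 397.9 in its group and at most 450 in each other group, and without it the averaged difference was -1.76 (limma, adjusted p = 0.0871). Of the same 8 markers, 3 (Mrc1, F13a1 and Pf4) were called lower in retina when the genotypes were averaged, against 1.08% of all genes. Their mean log2 level differed with PLX5622 by -2.07 in control retina (exact permutation test, p = 0.00794) and by -1.022 in Tgfbr2ΔEC retina (exact permutation test, p = 0.135), and the part of those cells in Siglec1 was not tested.

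Cd22 in the retina was low, with 46.1 in mouse 2 as the highest value. It was at 3.89, 46.1, 1.55, 1.57 and 4.37 normalized counts in controls - PLX and at 2.52, 3.26, 5.42, 6.65 and 3.01 in Tgfbr2ΔEC - PLX, and it was listed at 0 in 8 of 10 retinas on PLX5622, the others being at 4.08 and 1.80. The log2 difference averaged over genotypes was -2.07 ± 0.47 (limma, adjusted p = 0.0289; exact permutation test of this gene within genotypes, p = 0.000315). At a pseudocount of 5 it was -0.88 (limma, adjusted p = 0.267), and the call was lost when any of 11 of the 20 mice was left out. The mean log2 level of the B cell markers differed with PLX5622 by -0.236 in control retina (exact permutation test, p = 0.0635). In Tgfbr2ΔEC retina it differed by -0.238 (exact permutation test, p = 0.627). Siglecf, between 1.2 and 26.2 normalized counts, and Siglecg, between 0 and 15.3, passed the test in neither genotype, and their highest values were in mice 17 and 18, both Tgfbr2ΔEC on PLX5622.

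**Figure D3:**
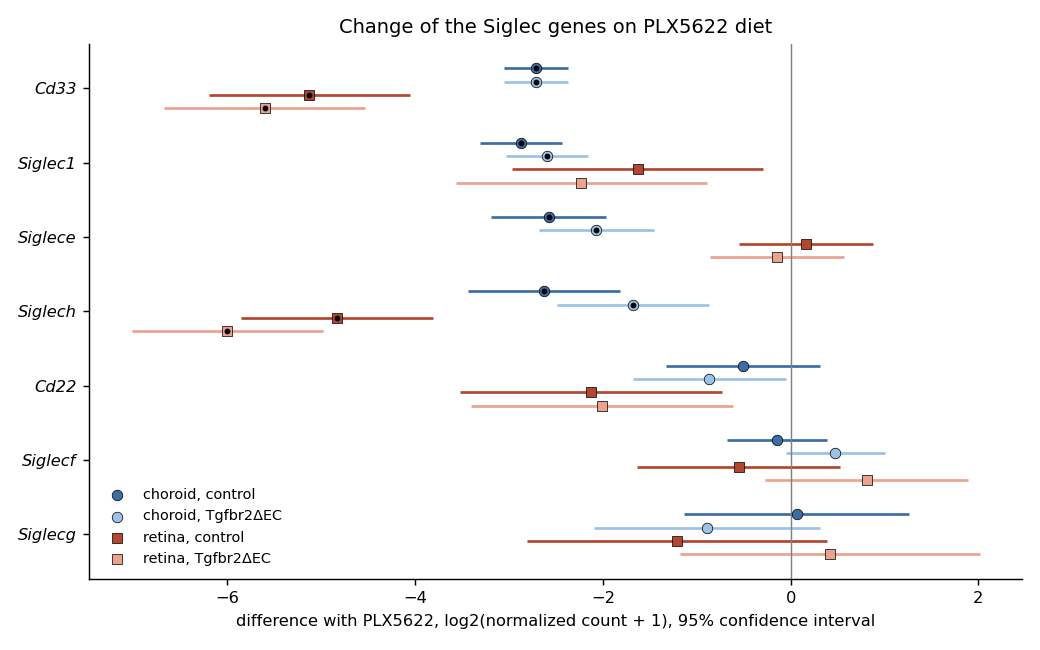
Difference of each Siglec gene between mice with and without PLX5622 on the log2(normalized count + 1) scale (horizontal axis), with 95% confidence intervals from limma, for choroid (circles) and retina (squares) of controls (dark) and Tgfbr2ΔEC mice (light); a black centre marks an adjusted p of at most 0.05. Cd33 and Siglech sit farther left in retina than in choroid, and Siglece sits near 0 in retina and between -2.58 and -2.07 in choroid.

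Whether the response differed between the tissues was tested directly, in a fit of all 40 libraries with both genotypes averaged. Of the 7 members, 3 were called, against 1.37% of 24317 genes. Siglece fell by 2.33 ± 0.32 more in choroid than in retina (log2; limma, adjusted p = 6.30e-06). Siglech fell by 3.26 ± 0.44 less in choroid (limma, adjusted p = 5.06e-06), and Cd33 fell by 2.65 ± 0.38 less (limma, adjusted p = 1.47e-05). The sizes of the latter pair rest on retinas at the floor: at a pseudocount of 5 the Cd33 difference was 0.88 (limma, adjusted p = 0.0619). At that pseudocount Siglec1, -0.80 ± 0.49 otherwise (limma, adjusted p = 0.640), came to -1.41 (limma, adjusted p = 0.0255). Cd22 was at 1.38 ± 0.56 (limma, adjusted p = 0.332), Siglecf at 0.039 ± 0.41 (limma, adjusted p = 0.995) and Siglecg at -0.018 ± 0.70 (limma, adjusted p = 0.998), and none of these was called.

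The tissues themselves differed for most members, as they did for 75.1% of all genes. Without PLX5622, 6 of 7 were higher in choroid than in retina, by log2 differences of 1.57 (Siglece) to 6.08 (Siglec1), and Siglech was not called, at 0.21 ± 0.31 (limma, adjusted p = 0.552; mean 64.9 normalized counts in choroid and 54.9 in retina). With PLX5622, when 75.4% of genes were called, all 7 differed. Siglech was then 3.47 higher in choroid, and Siglece alone was lower there, by -0.76 ± 0.23 (limma, adjusted p = 0.00292), at a mean of 24.6 ± 9.9 (SD, n = 10) normalized counts in choroid and 43.5 ± 23.2 in retina.

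Levels between genes were compared per kb of the longest transcript, and neighbours in the order by exact sign-flip permutation tests over the 10 libraries of a tissue and diet, with p-values adjusted over the 24 pairs of neighbours. In choroid without PLX5622 the order was Siglec1 (193 ± 43.0 normalized counts per kb, SD, n = 10), Cd33 (166 ± 26.8), Cd22 (50.6 ± 21.3), Siglece (28.9 ± 4.62), Siglecf (26.6 ± 5.85), Siglech (21.6 ± 9.33) and Siglecg (8.65 ± 6.92). Siglec1 and Cd33 did not differ beyond their spread (higher in 7 of 10 choroids, exact permutation test, adjusted p = 0.239), nor did Siglece and Siglecf or Siglecf and Siglech (higher in 6 of 10 in both), while the other 3 steps passed. On PLX5622 the leading 4 were Cd22 (35), Siglecf (31.6), Siglec1 (29.1) and Cd33 (25.4), none of which differed from its neighbour among them, and only the step from Cd33 to Siglecg passed (10 of 10, exact permutation test, adjusted p = 0.0078).

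In retina without PLX5622 Siglech led with 18.2 ± 6 normalized counts per kb, above Cd33 (10.4 ± 4.15) in 10 of 10 retinas (exact permutation test, adjusted p = 0.0078). This order rests on the division by the longest transcript, 3008 bases for Siglech and 6556 for Cd33. Before that division Cd33 averaged 68.03 normalized counts in these retinas and Siglech 54.89. No other length was tried. Cd33 and Siglece (9.67 ± 2.12) did not differ beyond their spread, and Siglec1 (3.37), Siglecf (2.67), Cd22 (1.85) and Siglecg (0.478) followed with no step between them that passed. On PLX5622 Siglece led with 10.6 ± 5.63, above Siglecf (2.88 ± 2.57) in 9 of 10 retinas (exact permutation test, adjusted p = 0.0234), and the lowest 5 were all under 1 normalized count per kb. The 7 genes together fell from 495 ± 78.9 to 138 ± 36.3 normalized counts per kb in choroid and from 46.7 ± 12.5 to 15.3 ± 5.70 in retina. Their make-up shifted with it. Siglec1 and Cd33 made up 38.8% and 33.7% of the choroidal sum without PLX5622 and 21.5% and 18.9% with it, where Cd22 and Siglecf held 24.2% and 23.2%. In retina Siglech held 39.1% without PLX5622 and Siglece 67.9% ± 18.3 (SD, n = 10) with it. All these shares rest on the same transcript lengths.

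**Figure D4:**
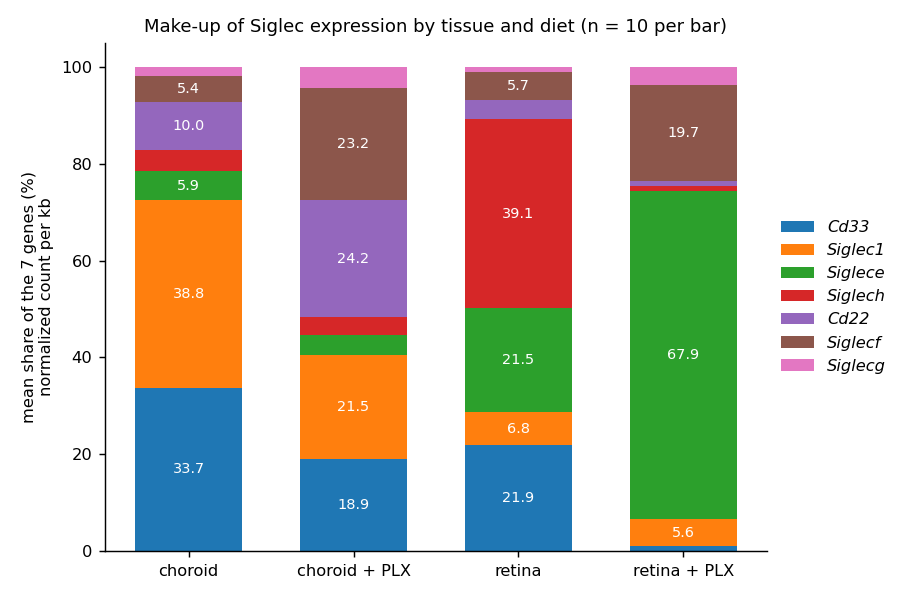
Mean share of each Siglec gene in the sum of the 7 (vertical axis, percent of normalized counts per kb) for choroid and retina without and with PLX5622 (10 libraries per bar). Siglec1 and Cd33 fill most of the untreated choroid, Siglech is the largest share in untreated retina at 39.1%, and Siglece in treated retina at 67.9%.

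The members were set beside the microglia markers of the same libraries, as the difference between a member and the mean log2 level of 11 markers, tested over all relabellings of diet within genotype (14 exact permutation tests, two-sided, unadjusted, smallest possible p = 3.15e-05). The marker score fell by 2.215 in choroid and by 4.91 in retina. Of the markers, 9 of 11 were called lower in choroid in each genotype, the others being Tmem119, at 0.006 in controls and 0.061 in Tgfbr2ΔEC mice, and Sall1. Of all genes 3.15% were called lower in control and 3.5% in Tgfbr2ΔEC choroid. In retina 10 of 11 were called in controls and 11 of 11 in Tgfbr2ΔEC mice, against 0.727% and 0.512% of all genes called lower. The summed level of the 11 went from 29630 to 36380 down to 9499 to 12000 normalized counts in choroid and from 2054 to 4542 down to 395.8 to 530.2 in retina.

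In choroid Siglece and Siglech were not shown to differ from the score, with differences of -0.11 (exact permutation test, p = 0.536) and 0.06 (exact permutation test, p = 0.827). Cd33 and Siglec1 differed from it by -0.50 (exact permutation test, p = 0.000315) and -0.52 (exact permutation test, p = 0.00485). These differences depended on the make-up of the score: without Tmem119 they were -0.272 (exact permutation test, p = 0.0354) and -0.29 (exact permutation test, p = 0.0818), and the median of the 11 markers, -2.643 with genotypes averaged, lay close to Cd33 at -2.712 and Siglec1 at -2.734. Siglecf stood 2.38 (exact permutation test, p = 3.15e-05), Siglecg 1.80 (exact permutation test, p = 0.000504) and Cd22 1.53 (exact permutation test, p = 9.45e-05) above the score. All 8 border macrophage markers were called lower in choroid in both genotypes, against 3.15% of all genes in controls and 3.5% in Tgfbr2ΔEC mice. Their median log2 difference was -3.34 in controls and -3.46 in Tgfbr2ΔEC mice. Of 4 monocyte markers, of another cell type that carries Cd33 and Siglece, 1, Ccr2, was called lower in choroid in both genotypes, against the same shares, and none in retina in either. Their mean log2 level differed with PLX5622 by -1.144 in control choroid (exact permutation test, p = 0.00794), -0.686 in Tgfbr2ΔEC choroid (exact permutation test, p = 0.0238), -2.694 in control retina (exact permutation test, p = 0.00794) and -1.302 in Tgfbr2ΔEC retina (exact permutation test, p = 0.103), and their part in the members was not tested. In retina Cd33 and Siglech were not shown to differ from it (-0.46, exact permutation test, p = 0.176, and -0.51, exact permutation test, p = 0.114). For Siglech this rested on 1 library: without mouse 11, the only treated retina with reads of it, the difference was -0.769 (exact permutation test, p = 0.000157), with all 9 other treated retinas at 0, so that its size is set by the pseudocount. With all mice, the sign of the Siglech difference depended on the pseudocount, at -0.965 with 0.5 (exact permutation test, p = 0.0209) and 0.343 with 5 (exact permutation test, p = 0.0391). Siglece stood 4.92 above the score (exact permutation test, p = 3.15e-05). For Siglec1, Cd22, Siglecf and Siglecg the mean log2 level in untreated retinas (4.16, 2.45, 2.74 and 1.21) was below the fall of the score, so that their differences from it were fixed by the floor and are not given.

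**Figure D5:**
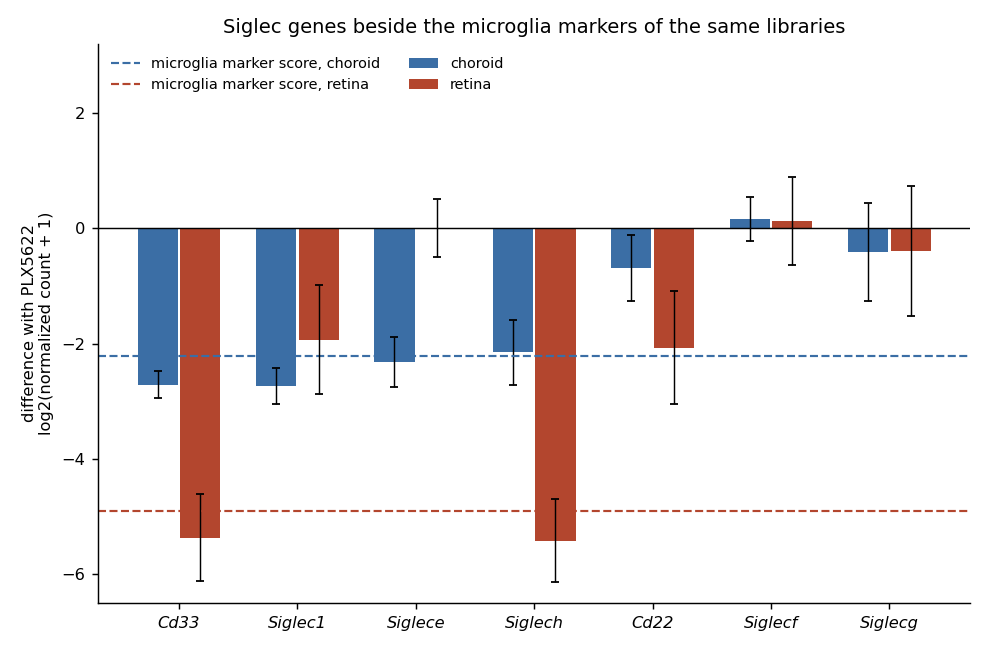
Difference with PLX5622 on the log2(normalized count + 1) scale, averaged over both genotypes, for each Siglec gene in choroid (blue bars) and retina (red bars) with 95% confidence intervals from limma, and for the mean of 11 microglia markers (dashed lines at -2.215 in choroid and -4.91 in retina). Siglece reaches the marker line in choroid and lies at 0.009 in retina.

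Deletion of Tgfbr2 in endothelial cells was compared at each diet, and its interaction with diet in each tissue. No member was called in any of these 6 comparisons, in which the whole genome gave 0.00423% of genes (1 of 23619) for each diet in choroid and 0% otherwise. By limma without adjustment, 1 member in the choroid with PLX5622 and none in the other 5 comparisons had a p under 0.05. That member was Siglecf, at 54.0 to 74.9 normalized counts in controls + PLX and 64.9 to 178 in Tgfbr2ΔEC + PLX (log2 difference 0.66 ± 0.26, limma, unadjusted p = 0.0172 and adjusted p = 1; exact permutation test, p = 0.0397), and its groups overlapped. The log2 differences between genotypes of all members ran from -0.32 to 0.61 in choroid and from -0.93 to 0.53 in retina without PLX5622, and from -0.49 to 0.66 and from -0.77 to 1.25 with it. For Cd33 in choroid the intervals were narrow, -0.49 to 0.19 without and -0.50 to 0.18 with PLX5622, and for Siglecg they reached from -0.59 to 1.81 without it.

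The partners that carry Siglec signals were read from a list of 9 genes. It held adaptors, phosphatases and kinases, and also Trem2, which is itself a receptor and not such a partner. In choroid 8 of 9 were called lower with PLX5622 in controls and 7 of 9 in Tgfbr2ΔEC mice, with medians of -1.55 and -1.70, against 3.15% and 3.5% of all genes called lower. The kinase Lyn, which phosphorylates the inhibitory motifs, was at -1.55 in controls, the phosphatase SHP-1 (Ptpn6) at -1.79, the adaptor Fcer1g at -2.185 and the lipid phosphatase SHIP-1 (Inpp5d) at -1.39, all called lower. Ptpn11, the widely expressed phosphatase SHP-2, was at -0.09 in controls and -0.11 in Tgfbr2ΔEC mice and was not called. In retina, where 0.727% of all genes were called lower in controls and 0.512% in Tgfbr2ΔEC mice, 4 of 9 were called lower in both genotypes, namely Tyrobp (-6.35 in controls), Trem2 (-5.535), Fcer1g (-4.43) and Lyn (-2.32). Tyrobp in choroid went from a mean of 2876 to 1038 normalized counts in controls (-1.60). Siglech needs this adaptor for its place at the cell surface.

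The genes that make, attach and remove the ligand were read from 3 lists, whose counts in the choroid of controls stand against 3.15% of all genes called lower, and in Tgfbr2ΔEC choroid against 3.5%. Of 7 genes of sialic acid synthesis, 1 was called lower in the choroid of controls, Cmah (-0.895), which converts N-acetyl to N-glycolyl neuraminic acid, and none in Tgfbr2ΔEC choroid or in retina. Of 20 sialyltransferases, St8sia4, a polysialyltransferase, was called lower in choroid in both genotypes (-1.26 in controls and -0.88 in Tgfbr2ΔEC mice), St6galnac4 was called lower (-0.605) and St6galnac2 higher (0.42) in controls, and St6gal2, named after its value was seen, lower (-3.5) in Tgfbr2ΔEC mice. That made 2 of 20 lower and 1 higher in controls and 2 of 20 lower in Tgfbr2ΔEC mice. The mean log2 level of the 20 differed with PLX5622 by -0.51 in Tgfbr2ΔEC choroid (exact permutation test, p = 0.00794) and by -0.14 in control choroid (exact permutation test, p = 0.587), and their median difference was 0.025 and -0.096. The photoreceptor genes had a median difference of -2.34 in Tgfbr2ΔEC choroid, and their part in these values was not tested. No sialyltransferase was called in retina, and none of 3 sialidases tested in any of the 4 comparisons. Siglec1 is known as an interferon-induced gene, and of 8 interferon-stimulated genes 1, Irf7, was called lower in the choroid of controls (-1.31, limma, adjusted p = 0.0294) and none in the other 3 comparisons. Their mean log2 level differed with PLX5622 by -0.59 in control choroid (exact permutation test, p = 0.00794), -0.58 in control retina (exact permutation test, p = 0.0476), 0.027 in Tgfbr2ΔEC choroid (exact permutation test, p = 0.952) and -0.23 in Tgfbr2ΔEC retina (exact permutation test, p = 0.532), and its part in Siglec1 was not tested.

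The genes whose log2 levels followed a member most closely over the 20 libraries of a tissue were listed as a description, since all of them share the diet contrast, and the correlation after centring within the 4 groups stands beside each. In choroid Cd33 was closest to Gpr34, Mrc1 and Lcp1 (r = 0.988, 0.986 and 0.982; centred 0.626, 0.587 and 0.502), and Siglec1 to Pik3ap1, Nlrc4 and Cd180 (0.986, 0.983 and 0.980; centred 0.728, 0.897 and 0.592). Siglece was closest to Arrb2, Ms4a6c and Fcer1g there (0.976, 0.973 and 0.971; centred 0.781, 0.747 and 0.769), and in retina to Prss53, Rbck1 and Ipo4 (0.818, 0.818 and 0.812; centred 0.823, 0.812 and 0.829). Siglech was closest to Ighm, Cd79b and the lncRNA Sros1 in choroid (0.918, 0.912 and 0.911; centred 0.608, 0.622 and 0.684) and to Ly86, C1qc and C1qa in retina (0.980, 0.979 and 0.971; centred 0.744, 0.729 and 0.578). Cd79b, a B cell receptor component, was itself called lower in choroid (-1.73 in controls and -1.41 in Tgfbr2ΔEC mice), and the other 5 B cell markers were not called. Cd22 in choroid was closest to Plaur, Emilin2 and Rbbp8 (0.840, 0.818 and 0.803; centred 0.825, 0.770 and 0.758). In retina Cd33 was closest to Mpeg1, P2ry13 and Fcgr3 (0.987, 0.976 and 0.975; centred 0.819, 0.609 and 0.683) and Siglec1 to F13a1, Arhgap25 and Blnk (0.822, 0.81 and 0.804; centred 0.727, 0.728 and 0.551). Siglecf in choroid was closest to Rgl1, Tas1r3 and Prkd3 (0.75, 0.701 and 0.694; centred 0.685, 0.744 and 0.671), and Siglecg to Zfp1008, Nt5m and Ube4b (0.702, 0.696 and 0.695; centred 0.718, 0.687 and 0.703).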

How the data were processed

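Poly(A) RNA of 20 choroids and 20 retinas was sequenced as stranded single reads. The authors quantified reads with Salmon 1.10.1 on GRCm39 (GENCODE M29) and used DESeq2 1.36.0. The values deposited by the authors are a signal per gene and library, named normalized counts, with the libraries already scaled to each other before deposit. They are not whole numbers, and whole reads could not be recovered from them (54.1 to 82.2% of low values lay within 0.1 of a whole read). Summed signal was 22256892 to 25956180 per library. No columns without a sample were present.

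Here log2(normalized count + 1) of genes with a mean of at least 1 was fitted with limma 3.58.1 (R 4.3.3; moderated, intensity trend), per tissue over 4 groups and, for comparisons between tissues, over all 40 libraries, with Benjamini-Hochberg adjustment over all genes tested. Single genes were also tested by two-sided exact permutation (252 relabellings for 5 against 5, 63504 within both genotypes), 70 tests in all for the members, unadjusted. Contrasts averaged over genotypes were added after seeing the data. The members and lists were chosen with earlier results of these data known. The authors' own tests used sex and an estimated neuronal share, not used here; scores of sex-linked and photoreceptor genes stood in for them in alternatives. Other alternatives were pseudocounts of 0.5 and 5, other filters and scalings, fits of only the groups compared, and leaving out each mouse. Scripts were tested on simulated data.

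By rule all members were to be named in every comparison; comparisons between genotypes, between tissues and with the microglia score in retina give some of them by range or not at all. Those averaging under 10 in a tissue had no likeness computed. From each other list, at most the 4 genes with the lowest p in controls were named, beside defining markers at 0; Ptpn11, St6gal2, Tyrobp in choroid, Prg2, Ccr9, the microglia markers and the border macrophage markers in retina were named after their values were seen. Of 12 microglia markers 11 matched a gene. For likeness, the 3 genes with the highest Pearson r were taken among genes with a mean of at least 10. Gene models and the sequences came from GENCODE M39 on GRCm39, which held 53700 of the 54307 identifiers. The symbol St6galnac2 matched 2 identifiers, of which the first was read. Choroid and retina were paired by mouse number; deviations of the 2 tissues from their group means had a consensus correlation of -0.011.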

Additional observations from a re-analysis of the deposited data

Results flagged for a closer look

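In 13 of 56 groups of 5 libraries, 1 library stood apart, with a gap to its nearest neighbour that was a larger share of the group's range than 0.71; chance gives about 1 in 20, or 2.8 groups. Several of these lay at or near the floor of 3 reads.

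Cd22 stood apart in 5 groups. Among choroids, mouse 3 (control - PLX) was at 466.5 normalized counts against 160.4 to 208.3 in the others (gap 0.843 of the range), and mouse 13 (control + PLX) at 400.5 against 88.9 to 172.8 (0.731). Among retinas, mouse 2 (control - PLX) was at 46.1 against 1.55 to 4.37 (0.937), mouse 12 (control + PLX) at 4.08 with the others at 0 (1.0), and mouse 18 (Tgfbr2ΔEC + PLX) at 1.80 with the others at 0 (1.0), which is under the floor.

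Mouse 17 (Tgfbr2ΔEC + PLX) stood apart for 3 genes, with choroidal Siglec1 at 311.6 against 157.1 to 201.0 (0.716), retinal Siglecf at 26.2 against 3.28 to 7.87 (0.8) and retinal Cd33 at 5.18 with the others at 0 (1.0). Mouse 11 (control + PLX) stood apart for 3 retinal genes, Siglece at 88.5 against 23.8 to 42.6 (0.71), Siglech at 8.10 with the others at 0 (1.0) and Siglecg at 0.934 with the others at 0 (1.0), the last under the floor. Retinal Siglece of mouse 16 (Tgfbr2ΔEC + PLX) was at 82.0 against 22.6 to 37.4 (0.751), and retinal Siglecg of mouse 6 (Tgfbr2ΔEC - PLX) at 4.21 against 0 to 0.982 (0.767).

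The response to PLX5622 differed between choroid and retina for 3 genes by a test of the difference itself (limma), with choroid minus retina at 2.65 for Cd33, -2.33 for Siglece and 3.26 for Siglech on the log2 scale.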

How the results depend on the processing

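The number of members called was within 1.5 times its value above under every alternative that kept all mice. It also was without single mice, except that the averaged retina gave 2 in place of 4 without mouse 5, 8, 9, 13, 14, 15, 16 or 17. Without single mice it was 4 in choroid and 2 in retina within each genotype, 0 to 0 between genotypes, 4 to 5 and 2 to 4 for choroid and retina averaged over genotypes, 6, 7 and 3 for the comparisons of the tissues and their interaction with diet, and 10 to 11 of the 14 differences from the microglia score, of which 4 in retina are fixed by the floor. Averaged retinal Siglec1 lost its call without mouse 1, 4, 5, 6, 8, 9 or any of 13 to 18, and Cd22 without mouse 5, 8, 9, 11, any of 13 to 17, 19 or 20. No paired analysis was possible within a tissue because the groups compared share no mouse number. For the tissues of a mouse, the replicate block (consensus correlation -0.011) gave 6, 7 and 3 members called and changed no call. Alternatives that ended or gave a call are printed beside Siglech, Cd22, Siglec1 and Cd33 above; without a minimum mean, with the photoreceptor score and with the sex score, averaged retinal Siglec1 had adjusted p-values (limma) of 0.0718, 0.0637 and 0.0549, and Cd33 in retina differed from the microglia score by -0.648 without mouse 17 (exact permutation test, p = 0.05). The cause was not tested.

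Signs that turned belonged to differences past the threshold neither before nor after, except retinal Siglech against the microglia score, which at a pseudocount of 5 turned to 0.343 and passed it (exact permutation test, p = 0.0391). With the photoreceptor score the genotype difference without PLX5622 was 0.029 for Cd33, 0.3 for Siglec1, 0.1 for Siglece and 0.54 for Cd22 in choroid and 0.202 for Siglec1 in retina, and the choroidal interaction of Siglec1 with diet -0.052. With the sex score Cd22 between genotypes was 0.02 in choroid without and 0.06 in retina with PLX5622, and the choroidal interaction of Cd33 was 0.007, or 0.018 with median-of-ratios scaling. With equal totals averaged retinal Siglece was -0.012 and the tissue by diet interaction of Siglecg 0.013, or 0.233 at a pseudocount of 0.5. Against the microglia score at a pseudocount of 5, retinal Cd33 was 0.165 and choroidal Siglece 0.031; with 3 markers retinal Cd33 was 0.098 and Siglech 0.046, and without Tmem119 choroidal Siglece 0.116.

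Without single mice, signs turned within these ranges. For PLX5622 they were -0.332 to 0.418 for Siglecg in control choroid, -0.095 to 0.368 for Siglece in control retina, -0.438 to 0.016 for Siglece and -0.229 to 0.777 for Siglecg in Tgfbr2ΔEC retina, and -0.138 to 0.111 for Siglece and -0.083 to 0.25 for Siglecf in averaged retina. Between genotypes without PLX5622 they were -0.231 to 0.152 for Cd22, -0.154 to 0.073 for Siglec1 and -0.095 to 0.155 for Siglecf in choroid and -0.603 to 0.448 for Cd22, -0.507 to 0.171 for Siglec1 and -0.062 to 0.195 for Siglece in retina. With PLX5622 they were -0.698 to 0.052 for Siglecg in choroid and -0.469 to 0.297 for Cd22, -0.747 to 0.026 for Cd33 and -0.545 to 0.005 for Siglece in retina. The interaction of genotype and diet ran from -0.114 to 0.097 for Cd33 in choroid and from -0.62 to 0.589 for Cd22 in retina, that of tissue and diet from -0.134 to 0.209 for Siglecf and from -0.256 to 0.284 for Siglecg, and the difference of choroidal Siglech from the score from -0.066 to 0.178.

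Over all genes, counts moved by more than 1.5 times in few settings: 572 against 885 calls for controls in choroid when only the groups compared were fitted, 532 against 958 for Tgfbr2ΔEC choroid with the photoreceptor score, and, for genotype in choroid without PLX5622, 1 call against 0 at a minimum mean of 5, 303 with only the groups compared, 2 without mouse 4 or mouse 8 and 411 without mouse 15. Genotype with PLX5622 gave 1 call or 0 in choroid, and 0 in retina but 1 without mouse 12. The tissue by diet interaction gave 332 calls and 620 without mouse 15. Depth limits Cd33, Siglech and Cd22 in treated retinas, most of which were under the floor.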

Other observations

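Of the other mouse Siglecs, Mag, the myelin-associated glycoprotein of oligodendrocytes and Schwann cells, was not called with PLX5622 in either tissue (log2 -0.21 in controls and 0.31 in Tgfbr2ΔEC choroids, 1.23 and -0.60 in retinas). It ranged from 39.6 to 449.9 normalized counts in choroid and from 1.70 to 46.2 in retina. The highest retina, a control + PLX mouse at 46.2, was also the one with the highest summed level of 4 Schwann cell markers, 3987 normalized counts against at most 987.6 in each other group of retinas, and their part in the value was not tested. Siglec15, an osteoclast Siglec, was at or under the floor in all choroids and was not tested. In retinas it averaged 0.24 normalized counts in controls and 0 in Tgfbr2ΔEC mice without PLX5622. On PLX5622 it averaged 1.62 and 1.18 there, with a highest value of 4.93 in a control.

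The choroid and the retina of a mouse were set side by side as deviations from their group means over 20 mice (9 relations, 100000 permutations within groups). For Siglece the deviations ran in opposite directions by rank (Spearman's rho -0.684, permutation p = 0.00223, adjusted p = 0.0201; Pearson's r -0.619, permutation p = 0.0272, adjusted p = 0.245; r without the 2 mice farthest from the median in choroid -0.687). Mice far out in retina were not left out. Of the other 8 relations none passed adjustment by either measure, and Cd33 was at r -0.436 and rho -0.552 (permutation tests, adjusted p = 0.27 and 0.111). The microglia marker score had r 0.119 (permutation test, adjusted p = 0.768).

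Within the 10 choroids of a diet, 70 relations between a member and a marker score were computed. The scores were those of microglia, border macrophage, B cell and eosinophil markers and interferon-stimulated genes. None passed adjustment (permutation tests, lowest adjusted p = 0.281 for Pearson's r and 0.167 for Spearman's rho). Without and with PLX5622, Siglecf had r -0.148 and 0.079 with the eosinophil markers (permutation tests, adjusted p = 0.973 for both). Siglec1 had r 0.673 and 0.751 with the interferon-stimulated genes (permutation tests, adjusted p = 0.461 for both).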
